A study of Balaenoptera physalus with 6 samples.

Results

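Collagens, laminins, integrins, and the metalloproteinases and fibre proteins that build and cut the extracellular matrix were followed in fin whale (Balaenoptera physalus) skin sampled in the Mediterranean. The members were chosen by symbol: every gene named at a CpG site of the authors' list whose symbol begins as a collagen, laminin chain, integrin, ADAMTS, ADAM, matrix metalloproteinase (MMP), fibrillin, fibulin, tenascin X, thrombospondin or collagen prolyl 4-hydroxylase (P4HA), leaving out LAMB3. This gave 92 of the 6197 genes named at listed CpG sites, and 404 of the 32682 listed CpG sites, on 63 scaffolds. The study compared 3 skin samples labelled high in organochlorine (OC) contaminants with 3 labelled low, by reduced representation bisulfite sequencing (RRBS), in which MspI fragments are treated with bisulfite and the share of reads that keep a cytosine is its methylation level. Organochlorines are persistent chlorinated compounds, such as polychlorinated biphenyls and DDT, that build up in blubber. The labels give no age, sex or measured concentration and do not say that the samples came from separate animals. All high OC titles begin with BPT and all low OC titles with BPL, so whatever these prefixes mark cannot be told apart from contaminant load.

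Collagens are secreted as triple helices after prolyl 4-hydroxylases have modified their chains, and fibrillar collagens carry tensile load in the dermis. Laminins and type IV collagen form the sheet-like basement membrane between epidermis and dermis, and integrins, paired alpha and beta chains in the cell membrane, anchor cells to it. ADAMTS and MMP enzymes trim or break down matrix proteins, ADAM proteins cut proteins at the cell surface, and fibrillins, fibulins and tenascin X organise elastic and collagen fibres. Methylation at a CpG-rich promoter is usually low in expressed genes, whereas the bodies of genes are usually highly methylated.

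Listed sites had been picked by the authors on these same 6 samples: in the authors' deposited table every one has an absolute difference of group means of at least 0.1 as a fraction and an unadjusted p-value of at most 0.05. The direction and size of a listed difference are therefore described and not tested. High OC and low OC levels did not overlap at 402 of the 404 member sites (99.5%), as at 99.5% of all listed sites. A lack of overlap below therefore marks no site out. On the only stretch of unselected sites analysed here, the authors called 13 of 651 CpG sites different, a share of 2.0%. Member sites had a median of 12 to 14 reads per sample, with 5 to 300 reads at single sites, and 143 of the 404 had at least 10 reads in each sample. Skin holds several cell types, and a shift in the mixture of cells cannot be told apart from a shift of methylation within cells.

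Neither direction prevailed over the matrix genes as a whole. Of the 404 sites, 198 were higher and 206 lower in high OC. The share higher was 49.0% (exact binomial 95% interval 44.0 to 54.0%, counting error only). Beside it, 50.8% of all listed CpG sites and 52.9% of those with a gene were higher. That interval takes the sites as independent. Neighbouring sites can share reads and mostly share a direction, so it is too narrow. The authors called 35 of the 404 sites strongly different, a class whose smallest deposited difference is 0.33 as a fraction. That is 8.66%, beside 13.4% of all listed sites and 12.0% of those with a gene. Of the 35, 13 were higher and 22 lower, beside 2204 higher and 2164 lower of all strongly different listed sites. The median absolute difference was 19.3 percentage points, beside 19.0 over all listed sites and 18.3 over those with a gene. Mean methylation over the 404 sites was 62.4% ± 0.153 (SD, n = 3) in high OC and 63.5% ± 0.651 in low OC.

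Fisher's exact test on reads summed over the 3 samples of each group, two-sided, was used only to ask which listed differences exceed counting error; the spread between samples is not in it. It reuses the values on which the sites had been picked and adjusts among picked sites only, so its p-values are too small and its calls too many to stand as evidence of a group difference. With Benjamini-Hochberg adjustment over all 32682 listed sites at 0.05, 181 of the 404 member sites passed, 87 higher and 94 lower. That is 44.8%, beside 45.0% of all listed sites and 42.8% of those with a gene. All 35 strongly different member sites were among the 181. With fewer reads the count was smaller: 99, 107 and 113 sites passed without high OC replicate 1, 2 and 3, and 106, 97 and 97 without low OC replicate 1, 2 and 3. At 38 member sites all 6 read counts were even, and 31 of these passed. For those sites the test was repeated with all counts halved, which left 147 of the 404 sites past it. Of the 34 calls lost, 19 were at sites with even counts and 15 at others, where only the adjustment shifted. Even counts and lost calls are named below where the levels or difference of a single member site are given.

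Genes were split in the same way. A gene was said to lean higher when more of its listed sites were higher than lower in high OC: 43 of the 92 genes leaned higher (46.7%, beside 49.6% of all 6197 genes), 35 leaned lower (38.0%, beside 40.5%) and 14 were equal. A single listed site was all that 32 genes had, and 12 genes with at least 10 sites each held 177 of the 404. Sites of both directions occurred in 43 genes.

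**Figure D1:**
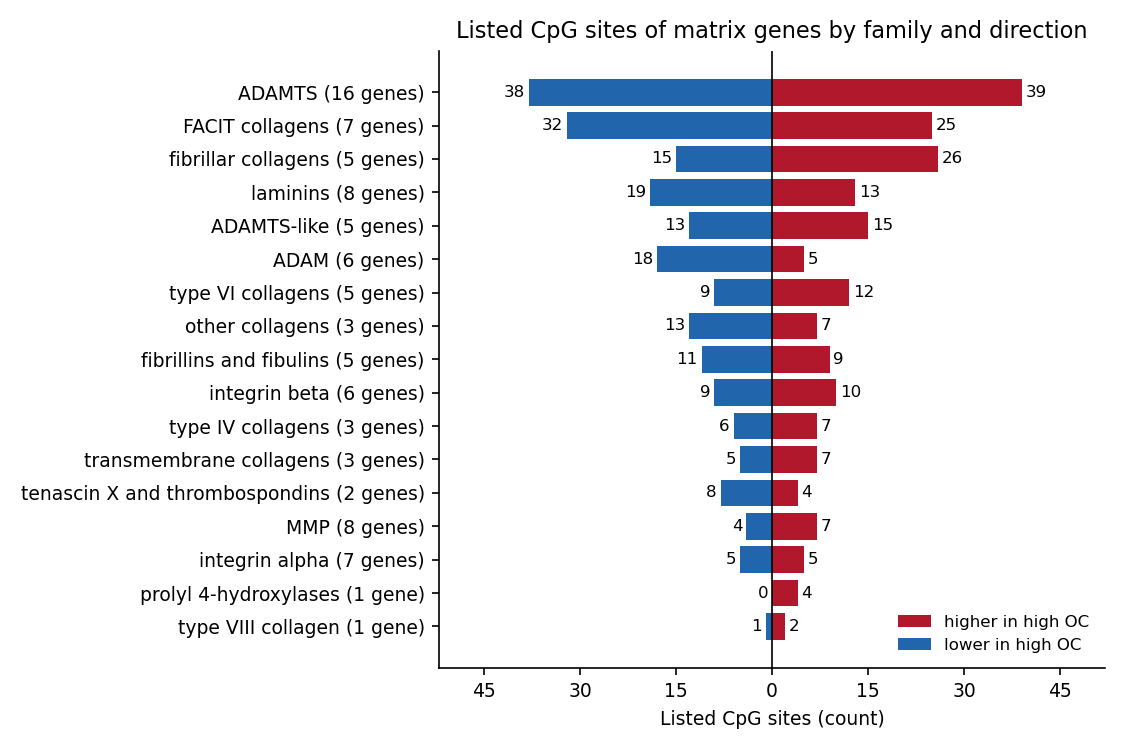
Number of listed CpG sites (horizontal axis) higher in high OC, to the right in red, and lower in high OC, to the left in blue, for each group of matrix genes, with the number of genes in parentheses. ADAMTS genes had 39 sites higher and 38 lower, fibrillar collagens 26 and 15, and ADAM genes 5 and 18; 1 ceramide transfer gene, COL4A3BP, is not drawn.

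Exons and introns held larger shares of the matrix gene sites than of all listed sites, many of which have no gene, and promoters a smaller one; beside listed sites with a gene the intron share was smaller. No test was made. An exon held 160 of the 404 sites (39.6%, beside 17.6% of all listed sites and 30.9% of those with a gene), an intron 235 (58.2%, beside 37.6% and 66.2%) and a promoter 25 (6.19%, beside 8.3% and 14.6%). RefSeq's table of fin whale genes (assembly mBalPhy2.hap1.1), from which only names were taken, holds 161 symbols that match the rule, and 90 of the 92 members are among them. The other 71 symbols were not named at any listed CpG site, and a gene listed under another name would be missed. Among the 71 are COL1A1, COL1A2 and COL3A1, the main collagen chains of dermis. The fibrillin gene FBN1 and ITGA6, an integrin chain of the hemidesmosome, are also among these genes. Whether their sites were covered by reads was not analysed here.

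Fibrillar collagen genes leaned higher in 4 of 5 cases, with 26 sites higher and 15 lower. COL5A1, which encodes a chain of type V collagen that controls the width of collagen fibrils, had the most listed sites of any member, 29. Of these, 18 were higher and 11 lower, spread over 130111 bases of scaffold NW_006732900_1. Sites more than 1 kb apart gave 20 separate places, 12 higher and 8 lower, so the directions alternated along the gene. The largest difference of COL5A1 with at least 10 reads per sample went against its lean: at start 12108937, in an intron, levels were 42, 9 and 16% in high OC replicates 1 to 3 and 80, 45 and 75% in low OC replicates 1 to 3. High OC replicate 1 lay just under the lowest low OC sample there, and the difference was -44.3 points (adjusted p = 0.00011, Fisher's exact test). Values below are given in this order of replicates, and a difference is high minus low OC in percentage points.

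COL5A3, another type V collagen gene, showed the largest difference among member sites read at least 10 times in all 6 samples. At start 1387727 of NW_006725554_1, in an intron, levels were 67, 80 and 81% in high OC and 18, 33 and 31% in low OC, on 12 to 35 reads. The groups lay far apart, at 76.0% ± 7.81 and 27.3% ± 8.14 (SD, n = 3 each), a difference of 48.7 points (adjusted p = 1.47e-07, Fisher's exact test). COL27A1, a fibrillar collagen best known from cartilage, had 3 sites higher and 2 lower. Its intronic site at 10284167 stood at 88, 92 and 94% in high OC and 71, 59 and 69% in low OC, without overlap (adjusted p = 0.000544, Fisher's exact test). COL24A1 had 2 sites, both higher, on 5 to 8 reads per sample, and COL11A2 had 1 lower site; none of these 3 passed the read count test.

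The paired type IV collagen genes COL4A1 and COL4A2, whose chains join into the main network of basement membranes, leaned in opposite directions. COL4A2 had 6 of 8 sites lower, COL4A1 3 of 3 higher. At the intronic COL4A2 site 2445283 of NW_006734122_1, levels were 60, 62 and 59% in high OC and 100, 85 and 80% in low OC, and the groups did not overlap (difference -28.0 points, adjusted p = 0.0069, Fisher's exact test). The COL4A1 exon site at 2715568 was at 100% in all high OC samples and at 77, 92 and 90% in low OC, with as few as 6 reads, and did not pass (adjusted p = 0.105, Fisher's exact test). COL4A4, a chain of the kidney and eye basement membrane, had 2 exon sites, both higher; COL8A2, of the short-chain type VIII collagen, had 2 of 3 higher within 47 bases. The lower exon site, 7964081, chosen after its values were seen, had the largest difference of the 3, at 18, 22 and 50% in high OC and 67, 67 and 55% in low OC on 6 to 11 reads. It was the only COL8A2 site past the read count test and lost the call with even counts halved elsewhere (adjusted p = 0.0562, Fisher's exact test). The exon site 7964128 was at 50% in each high OC sample and at 36, 40 and 29% in low OC, on even read counts, and did not pass (adjusted p = 0.253, Fisher's exact test).

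FACIT collagens, which attach to the surface of fibrils, held 57 sites in 7 genes, 25 higher and 32 lower. COL22A1, found in other mammals at tissue junctions, accounted for most of the lower ones: 21 of its 27 sites were lower, at 16 places of which 12 were lower, 2 higher and 2 equal, over 209870 bases. Averaged over these sites, its methylation was 64.1, 64.7 and 65.9% in high OC and 77.8, 76.7 and 77.1% in low OC. Most of them were picked as lower, so the direction of this mean follows largely from the choice of sites. COL22A1 sites made up 79.4% of the 34 listed sites on the same scaffold, NW_006727609_1. The largest well-read difference in COL22A1 was nevertheless a higher site, at 368515 in an intron: 71, 68 and 79% in high OC against 33, 33 and 43% in low OC (difference 36.3 points, adjusted p = 0.000124, Fisher's exact test). Only 11 bases away, on the other strand, a site chosen after its values were seen, 368526, was lower, at 31, 22 and 21% against 47, 44 and 42%, on even read counts. Its call was lost with those counts halved (adjusted p = 0.0253 before and 0.115 after, Fisher's exact test).

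COL20A1, a little-studied FACIT gene, had 9 sites higher and 5 lower. Its exon site at 741674 of NW_006728129_1 had levels of 90, 78 and 100% in high OC and 50, 27 and 50% in low OC. The groups did not overlap and the difference was 47.0 points (adjusted p = 2.58e-07, and 0.00106 with the even read counts halved, Fisher's exact test). COL12A1, which links fibrils in dense connective tissue, had 8 of 8 sites higher, but 7 of these lie within 56 bases. COL19A1 had 4 of 4 lower, and COL9A1 2 of 2 higher. COL9A3, of cartilage type IX collagen, had a single site that was lower, at 7, 9 and 6% against 20, 25 and 12%; it did not pass (adjusted p = 0.296, Fisher's exact test).

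Type VI collagen, the beaded filament network around cells, was mixed: 12 sites higher and 9 lower in 5 genes, of which COL6A1, COL6A3 and COL6A6 were equal. COL6A2 had 5 of 6 sites higher. COL6A5 had only 1 site, lower, at 45, 25 and 57% in high OC and 87, 74 and 65% in low OC, the groups apart (adjusted p = 0.0214, Fisher's exact test); it was chosen after its values were seen. Among collagens of the plasma membrane, COL13A1 had 5 of 8 sites higher, and COL17A1, the hemidesmosome collagen of basal keratinocytes, 2 of 3. COL13A1 at 4199022, in an intron, read 52, 43 and 43% against 57, 80 and 67% and did not pass (adjusted p = 0.0937, Fisher's exact test).

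COL18A1, whose tail is cleaved to the angiogenesis inhibitor endostatin, had 9 of 12 sites lower, at 9 places of which 7 were lower. Its exon site at 988357 of NW_006725821_1 was at 7, 7 and 6% in high OC and at 15, 29 and 40% in low OC (difference -21.3 points, adjusted p = 0.0495, and 0.0557 with even counts halved, which ends the call, Fisher's exact test). COL26A1 had 3 higher and 2 lower, among them the intronic site 13387788, at 9, 31 and 18% against 60, 80 and 44%, a difference of -42.0 points (adjusted p = 0.00436, Fisher's exact test). COL7A1, which forms the anchoring fibrils under the epidermis, had 1 site higher and 2 lower, all between 75 and 100%.

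P4HA2, a catalytic chain of collagen prolyl 4-hydroxylase, had 4 of 4 sites higher. All 4 lie in P4HA2 introns that overlap PDLIM4, a gene for a cytoskeletal adaptor, and 2 are in the PDLIM4 promoter. At 11852254 of NW_006729456_1, a PDLIM4 promoter and exon site, levels were 33, 25 and 30% in high OC and 0, 16 and 9% in low OC, with no overlap (difference 21.0 points, adjusted p = 0.0137, Fisher's exact test). The name COL4A3BP matched the rule by its letters only: it encodes a ceramide transfer protein, and its single site lies in a promoter shared with POLK, a DNA polymerase gene.

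Laminin genes were higher at 13 sites and lower at 19, yet 5 of the 8 genes leaned higher. All 19 lower sites lay in 3 genes: LAMA5, an alpha chain of skin and vessel basement membranes, with 10 of 15, LAMC3 with 5 of 7 and LAMA1 with 4 of 5. LAMA2, LAMA3, LAMA4, LAMB1 and LAMB4 had 1 higher site each. Averaged over its 15 sites, LAMA5 methylation was 48.5, 45.5 and 41.9% in high OC and 53.5, 56.3 and 56.3% in low OC. Most of these sites were picked as lower, so the direction of this mean follows largely from that choice. The LAMA5 exon site at 1562416 of NW_006728129_1 had 36, 29 and 50% in high OC and 56, 77 and 91% in low OC, so that the high OC sample nearest the low OC range was 6 points below it (difference -36.3 points, adjusted p = 0.0112, Fisher's exact test).

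LAMC3, a gamma chain, had the second largest difference of all members. At the exon site 14489093 of NW_006732900_1, levels were 27, 50 and 42% in high OC and 80, 100 and 100% in low OC, on 7 to 20 reads, and the groups did not overlap (difference -53.7 points, adjusted p = 0.000141, Fisher's exact test). In LAMA1, an alpha chain of embryonic basement membranes, the intronic site 1052618 of NW_006733789_1 was at 58, 53 and 57% in high OC and 93, 94 and 79% in low OC. That difference, -32.7 points, had an adjusted p of 2.79e-05 by Fisher's exact test, and of 0.00556 with its even read counts halved.

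Integrins, the receptors for these proteins, had 15 sites higher and 14 lower in 13 genes. ITGB4, the beta chain of the hemidesmosome that ties basal keratinocytes to laminin, had the most: 2 higher and 5 lower, none of which passed the read count test. Its exon site at 7729919 of NW_006728239_1, one of the higher ones, read 76, 80 and 86% in high OC and 67, 58 and 71% in low OC on even read counts (adjusted p = 0.0665, Fisher's exact test). ITGB2, the beta chain of leukocyte integrins, had 2 sites each way, and ITGB5, a vitronectin receptor chain, had 3 of 4 higher; their named sites, 1509177 and 2838329, differed by 19.3 and -16.3 points and did not pass (adjusted p = 0.0667 and 0.0601, Fisher's exact test). The largest integrin difference was in ITGA2B, the platelet fibrinogen receptor chain, at the intronic site 950719 of NW_006726765_1. Levels there were 91, 100 and 100% in high OC and 58, 53 and 64% in low OC, far apart (difference 38.7 points, adjusted p = 9.39e-07, and 0.0015 with its even read counts halved, Fisher's exact test). ITGB1, the common beta chain, had 1 site, lower, at 0% in every high OC sample and 20, 8 and 14% in low OC, which did not pass (adjusted p = 0.0887, Fisher's exact test); it was chosen after its values were seen.

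ADAMTS genes, secreted proteases of matrix, held 77 sites in 16 genes, 39 higher and 38 lower, and 45 of the sites were in exons. ADAMTS16, a protease with fibronectin among its substrates, had 12 of 12 sites lower, at 6 places over 159516 bases of NW_006731234_1. Its mean over these sites was 68.7, 70.2 and 69.0% in high OC and 84.7, 88.8 and 86.5% in low OC. With only lower sites in it, the direction of this mean is fixed by the choice of sites. The best-read large difference, at 8932858 in an intron, was 50, 62 and 67% against 77, 87 and 86% (difference -23.7 points, adjusted p = 0.0273, Fisher's exact test), and 5 of the 12 sites passed, 3 of them also with even read counts halved.

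ADAMTS10, which binds fibrillin microfibrils, had 8 of 8 sites higher, within 6254 bases. Its mean was 60, 57.0 and 59.1% in high OC against 44.2, 40.9 and 39.2% in low OC. With only higher sites in it, the direction of that mean is also fixed by the choice of sites. ADAMTS2, which removes the N-terminal propeptide of fibrillar procollagens, had 11 of 13 sites higher. These 13 sites lay at 6 places, 4 higher, 1 lower and 1 equal. The intronic ADAMTS2 site 3618849 of NW_006725588_1 was at 100, 90 and 100% in high OC and 67, 60 and 67% in low OC on 5 to 15 reads (difference 32.0 points, adjusted p = 0.0263, Fisher's exact test). ADAMTS12 had 5 of 5 lower and ADAMTS13, the von Willebrand factor protease, 6 of 9 higher. Genes with at least 8 sites had a single direction in 4 of 17 members (23.5%: ADAMTS10, COL12A1, ADAMTS16 and ADAM12), beside 59 of 480 genes over the whole list (12.3%); with at least 5 sites it was 5 of 28 (17.9%), beside 17.0%. ADAMTS12 is the fifth of these.

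ADAMTS5, the main aggrecan-cleaving protease of cartilage in mice, held sites of both directions in 2 separate exon clusters. In the lower cluster, site 38218054 of NW_006724458_1 had 50, 56 and 56% in high OC and 100, 94 and 100% in low OC. The difference was -44.0 points, the adjusted p by Fisher's exact test 2.45e-08, and 0.000325 with the even read counts halved. The exon sites of ADAMTS7 at 1656392 and of ADAMTS8 at 3647123 were at 100% in every high OC sample. In low OC they were at 94, 75 and 77% and at 86, 71 and 78%, with adjusted p-values of 0.00293 and 0.0198 by Fisher's exact test; the ADAMTS7 call was lost, at 0.0597, with its even read counts halved.

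ADAMTS-like genes, which resemble these proteases but lack the catalytic domain, had 15 sites higher and 13 lower, and their 2 richest genes went opposite ways. ADAMTSL2, which binds fibrillin and is mutated in geleophysic dysplasia in humans, had 9 of 12 lower. ADAMTSL5, a microfibril protein, had 10 of 11 higher, over 17706 bases, at only 4 places of which 3 were higher and 1 lower. At 11170764 of NW_006732900_1, in an ADAMTSL2 intron, levels were 54, 40 and 45% in high OC and 86, 85 and 83% in low OC (difference -38.3 points, adjusted p = 0.000383, Fisher's exact test). At 1781668 of NW_006726320_1, in an ADAMTSL5 exon, they were 92, 100 and 62% and 44, 42 and 59%. High OC replicate 3 lay 3 points above the highest low OC sample there, and the difference was 36.3 points (adjusted p = 0.0204, Fisher's exact test). ADAMTSL4, a microfibril protein of the lens zonule, had 2 of 3 higher, with 100, 82 and 78% against 67, 68 and 52% at 939271 (adjusted p = 0.00411, Fisher's exact test), and ADAMTSL1 a single lower site at 10397649 that did not pass (adjusted p = 0.162, Fisher's exact test).

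ADAM genes had 5 sites higher and 18 lower, and ADAM12 and ADAM8 supplied 15 of the lower sites. ADAM12, a sheddase induced in activated fibroblasts, had 10 of 10 lower, at 6 places over 214342 bases of NW_006725909_1. Averaged over these sites it stood at 51.8, 55.9 and 60.6% in high OC and 83.7, 85.3 and 84.8% in low OC; with only lower sites in it, the direction of this mean is fixed by the choice of sites. At 17266109, in an intron, levels were 62, 63 and 82% against 90, 95 and 94% (difference -24.0 points, adjusted p = 0.00968, Fisher's exact test). ADAM8, a protease of leukocytes, had 5 of 6 lower on the same scaffold, where 40.6% of all 743 listed sites were higher. Its exon site 23143950 read 47, 30 and 45% in high OC and 73, 71 and 88% in low OC (difference -36.7 points, adjusted p = 0.00189, Fisher's exact test). ADAM15 had 2 sites each way.

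MMP genes had few listed sites, 11 in 8 genes, with 7 higher and 4 lower and 8 in exons. MMP14, the membrane-bound activator of MMP2, had 1 higher and 1 lower; at 11308188, in an exon, levels were 53, 50 and 57% against 70, 62 and 75% on even read counts, and the difference did not pass (adjusted p = 0.105, Fisher's exact test). MMP25, a leukocyte enzyme, at 4925358, in an exon, was at 88, 80 and 82% in high OC and 57, 67 and 50% in low OC, without overlap (adjusted p = 0.0441, and 0.0501 with even counts halved, which ends the call, Fisher's exact test). MMP28, an enzyme of keratinocytes, had 2 of 2 higher. Its intronic site 3887655 was read 22 to 54 times per sample, at 7, 9 and 18% against 4, 0 and 0% (adjusted p = 0.00687, Fisher's exact test). MMP9, the gelatinase of inflamed skin, had a single lower exon site that did not pass.

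Of the fibrillin and fibulin genes, 2 leaned lower and 3 were equal. FBN3, a fibrillin of early development, had 3 sites each way, FBN2 2 each way, and FBLN2, a basement membrane and elastic fibre protein, 3 higher and 4 lower. FBN3 at 2292740, in an exon, was at 64, 64 and 72% in high OC and 82, 91 and 85% in low OC (difference -19.3 points, adjusted p = 0.021, Fisher's exact test). FBLN1 had 1 site, at 78, 88 and 71% against 100% in every low OC sample (adjusted p = 0.0497, and 0.0559 with even counts halved, which ends the call, Fisher's exact test). The FBLN2 site 656587 and the FBN2 site 8264343, at 18.7 and -13.0 points, passed the test at 0.0386 and 0.0233 by Fisher's exact test, but not with their even read counts halved (0.151 and 0.122). TNXB, the tenascin whose loss causes a form of Ehlers-Danlos syndrome in humans, had 8 of 11 sites lower, 7 of them in a single cluster. THBS2, a collagen fibril regulator, had 1 site, at 1021945 in an intron, with 38, 50 and 60% in high OC and 0, 0 and 22% in low OC on 5 to 12 reads (difference 42.0 points, adjusted p = 0.0199, Fisher's exact test).

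**Figure D2:**
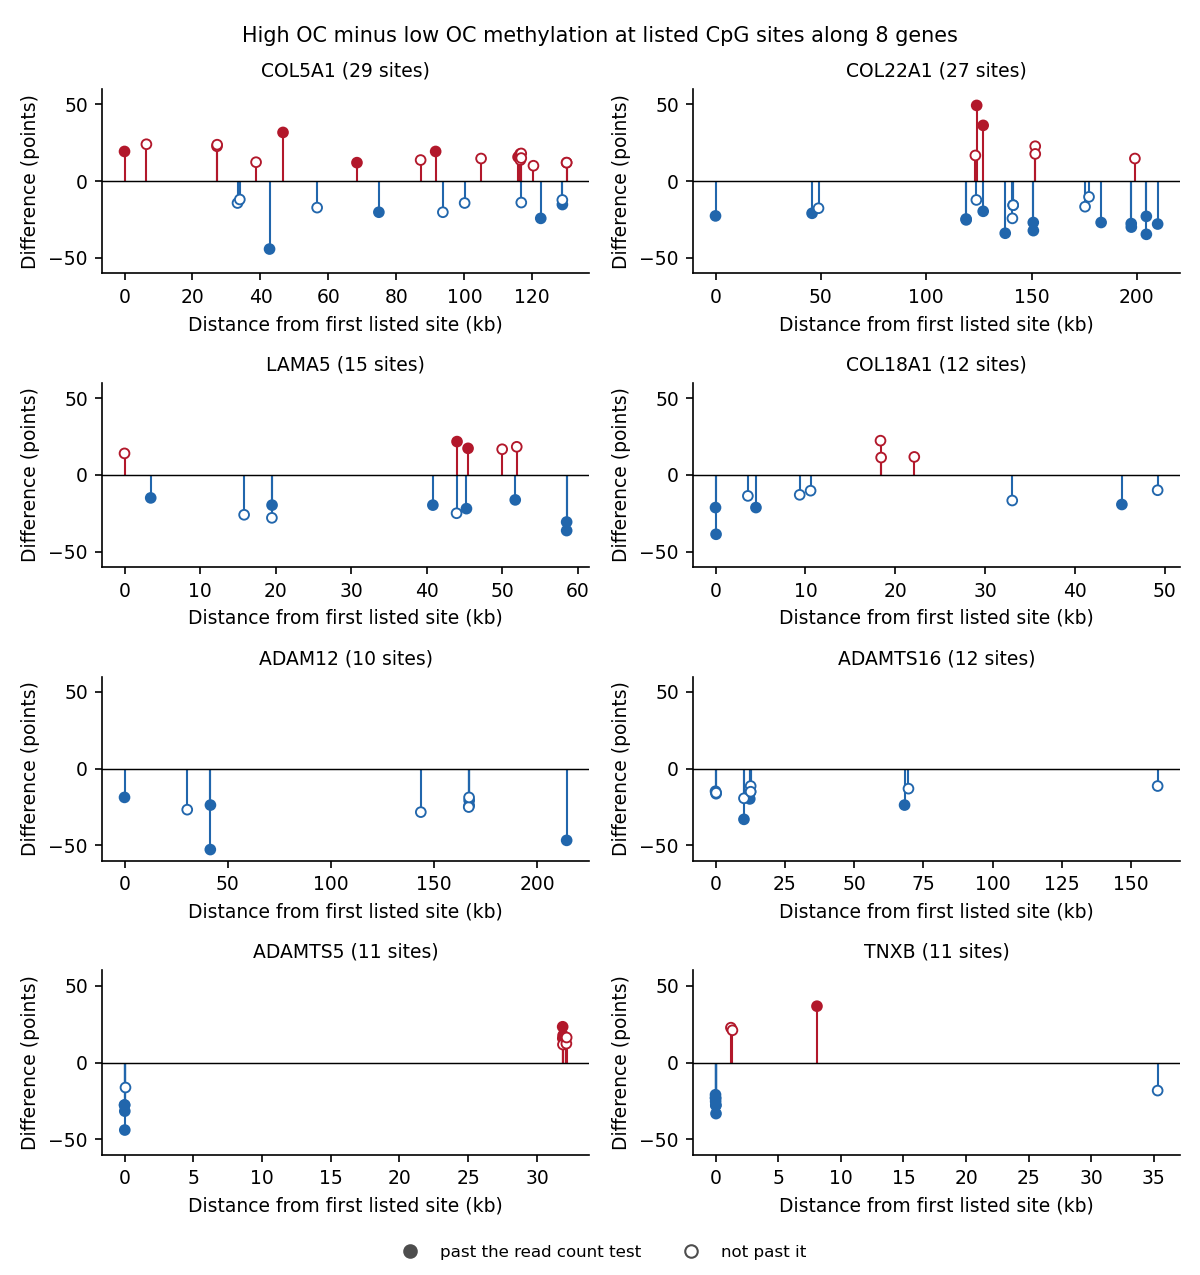
High OC minus low OC methylation (vertical axis, percentage points) at each listed CpG site, by its distance from the first listed site of the gene (kb), for 8 genes; red is higher and blue lower in high OC, and filled circles passed Fisher's exact test on summed reads. ADAM12 and ADAMTS16 lie below 0 throughout, COL5A1 alternates, and ADAMTS5 has 2 clusters of opposite direction.

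Neighbouring sites can share reads, so nearby sites are not separate evidence. Listed neighbours within 100 bases in the same member had the same direction in 82 of 92 pairs (89.1%, beside 88.9% over all genes). At 100 to 1000 bases it was 26 of 36 (72.2%, beside 66.8%), at 1000 to 10000 bases 55 of 108 (50.9%, beside 55.3%), and beyond that 43 of 76 (56.6%, beside 57.7%).

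Runs of at least 3 same-direction sites with gaps of at most 100 bases numbered 13, in 12 genes, with 59 sites; 6 runs were higher and 7 lower. In TNXB, 7 exon sites within 35 bases from 8341205 of NW_006732678_1, all on the minus strand, averaged 1.71, 2.14 and 7.86% in high OC and 21.3, 37.3 and 31.0% in low OC. All 7 passed the read count test, on 15 to 40 reads per sample. The stretch was nearly unmethylated in high OC and partly methylated in each low OC sample.

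In ADAMTS2, 7 exon sites within 66 bases from 3568839 averaged 27.4, 34.3 and 21.7% in high OC and 4.57, 7.86 and 10% in low OC. The COL12A1 run, 7 intronic sites within 56 bases from 5949444 of NW_006725488_1, averaged 40.7, 43.1 and 36.6% against 0.857, 16.0 and 22.4%. Low OC replicate 1 was almost unmethylated there while the other 2 low OC samples were not. At its plus-strand site 5949463 the levels were 43, 39 and 50% against 6, 20 and 27% (adjusted p = 0.0233, Fisher's exact test).

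ADAMTSL5 had 5 higher exon sites within 64 bases from 1780997, at 29.8, 28.6 and 27.6% against 7.4, 8.4 and 0.0%. COL20A1 had 5 higher sites within 113 bases from 741561, at 89.2, 84.4 and 90.6% against 56.6, 56.4 and 69.0%. The groups lay apart in each of these runs. Run sites share a direction and the groups did not overlap at any of them, so this follows from the choice of sites. ADAMTS5 had 5 lower exon sites from 38218029, at 52.2, 68.8 and 68.2% against 91.0, 92.8 and 93.8%, and 4 higher ones from 38249903, at 27.5, 16.8 and 21.2% against 3.25, 7.25 and 3.75%. The former region was highly methylated in low OC, the latter nearly unmethylated.

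Shorter runs were lower in ADAMTS12, ADAM12, ADAM8, ADAMTS16 and ADAMTSL2 and higher in COL6A2. Within the ADAMTS12 run lies the largest difference of any member, at 6593823 of NW_006731789_1, in an intron, chosen after its values were seen: 0, 18 and 0% in high OC and 43, 88 and 87% in low OC on 7 to 15 reads (difference -66.7 points, adjusted p = 6.78e-07, Fisher's exact test). Its 3 neighbours in the run, also on 7 to 15 reads, differed by -27.3, -19.3 and -15.7 points. The COL6A2 run overlaps an exon of LOC103009964, an uncharacterised locus, and stood at 58.3, 57.7 and 67.0% against 22, 39.0 and 25.7%. The ADAMTS16 run was lost without high OC replicate 1, and the ADAMTSL2 run without any of the other samples.

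**Figure D3:**
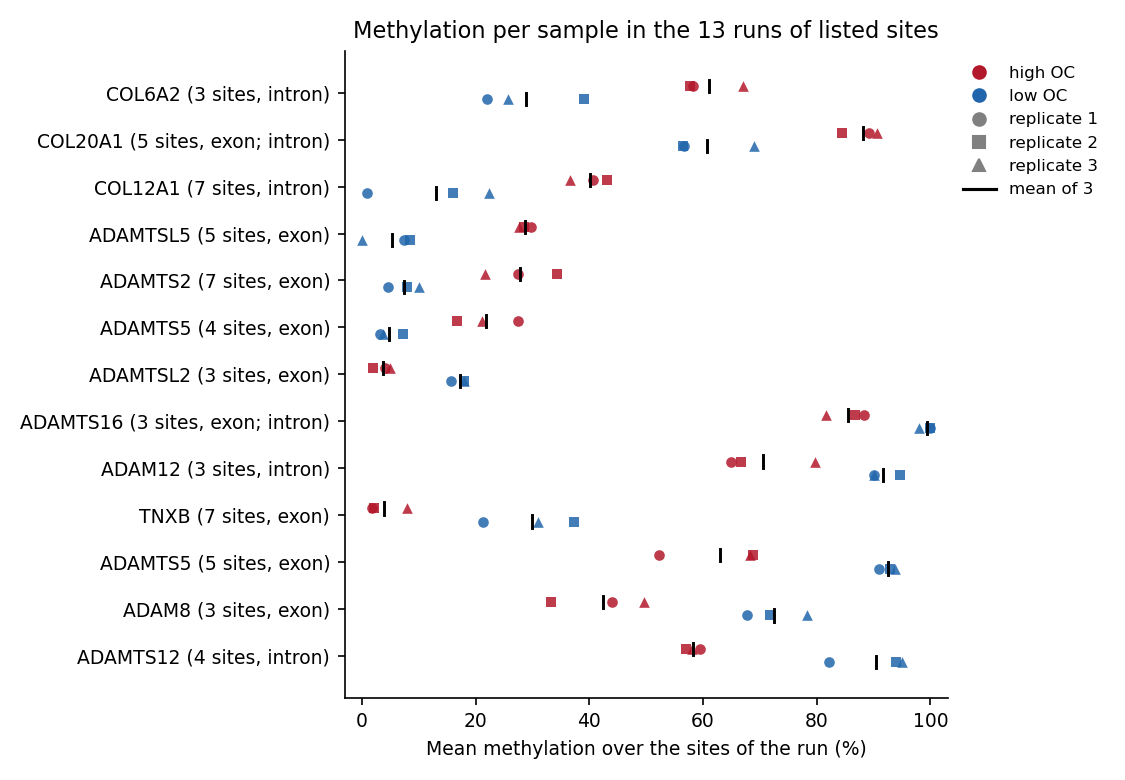
Mean methylation (%) per sample over the sites of each of the 13 runs; red symbols are high OC, blue low OC, the shape gives the replicate and the black bar the mean of 3 samples. In TNXB the high OC samples lie between 1.71 and 7.86% and the low OC samples between 21.3 and 37.3%, and in ADAMTS2 the order is reversed.

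Promoter sites were few and mostly of low methylation. A member promoter held 25 sites in 20 genes, 16 higher and 9 lower, a share higher of 64.0% beside 65.8% of all listed promoter sites. How far a promoter reaches is not stated by the labels or tables. Their mean methylation was 39.0, 35.6 and 37.0% in the high OC samples and 33.1, 32.6 and 32.6% in the low OC samples. More of the 25 were picked as higher than as lower, so the direction of this mean follows largely from that choice. At 14 of the 25 the mean level was under 20%, and the median level was 12.0%, beside 22.7% for all listed promoter sites.

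Among integrins, ITGA4, the alpha chain of lymphocyte homing receptors, was at 11, 14 and 9% in high OC and at 0% in each low OC sample (start 4987792, adjusted p = 0.0253, Fisher's exact test). ITGA3, the laminin receptor chain of epidermis, was the opposite, at 0% in each high OC sample and 15, 5 and 13% in low OC (start 1707282, adjusted p = 0.0354, Fisher's exact test). ITGA7, a laminin receptor of muscle, was at 92, 71 and 73% against 53, 46 and 58% (start 9229872, adjusted p = 0.0397), and ITGA8 at 39, 27 and 38% against 0, 23 and 8% (start 4931200, adjusted p = 0.0284, both by Fisher's exact test). In ITGA8 high OC replicate 2 lay 4 points above low OC replicate 2.

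Collagen promoters went both ways. COL6A6 had 3 higher sites within its promoter, of which 2568004 read 20, 23 and 29% against 7, 6 and 6% (adjusted p = 0.0274, Fisher's exact test). Another of them, 2567998, lost its call with even counts halved elsewhere (adjusted p = 0.0473 before and 0.0533 after, Fisher's exact test). COL5A1 at 12066262 was highly methylated in both groups, 100, 88 and 94% against 80, 73 and 71% (adjusted p = 0.0381, Fisher's exact test). COL20A1 at 755743, in a promoter and intron, had the largest promoter difference, -41.0 points, from 36, 50 and 25% in high OC and 88, 79 and 67% in low OC (adjusted p = 0.0135, Fisher's exact test). COL5A3 at 1351218 was at 0% in each high OC sample and 11, 7 and 12% in low OC on 20 to 57 reads (adjusted p = 0.00321, Fisher's exact test). COL6A1 had 2 sites of opposite direction, the lower one, 647804, on even read counts, and COL18A1 had 1 lower site at 1037561. None of these 3 passed.

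LAMC3 at 14509461 stood at 62, 57 and 67% against 89, 92 and 92% (adjusted p = 0.0439, Fisher's exact test), lower as in its exon. ADAMTS15, an aggrecanase, was at 12, 25 and 29% in high OC and 0% in each low OC sample at 3621309, on 7 to 12 reads (adjusted p = 0.0328, Fisher's exact test). Of the ADAM genes, ADAM17, the protease that releases tumour necrosis factor, was at 0% in each high OC sample and 17, 7 and 20% in low OC (start 2139274, adjusted p = 0.0453, and 0.0513 with even counts halved, which ends the call, Fisher's exact test). ADAM23, a non-proteolytic member, was higher, at 17, 7 and 11% against 0% (start 10376889, adjusted p = 0.0368, Fisher's exact test). ADAM15 had 1 promoter site each way, ADAM30, ADAMTSL5, COL4A3BP and 2 FBN2 sites were higher, and MMP23B was lower; none of these passed. The ADAMTSL5 promoter site also lies in an exon of PLK5.

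**Figure D4:**
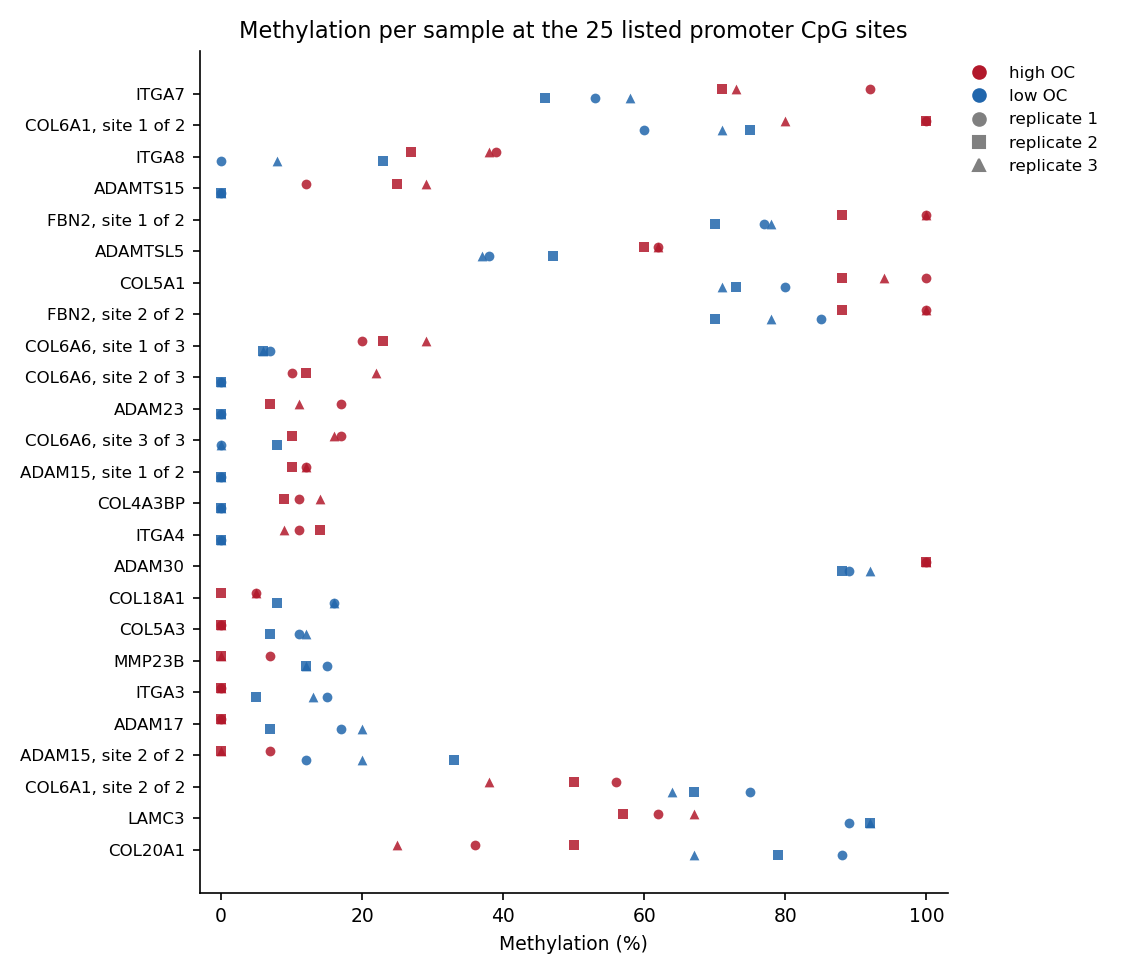
Methylation (%) in each sample at the 25 listed promoter CpG sites of matrix genes, ordered by difference; red is high OC, blue low OC and the shape gives the replicate. ITGA4, ADAM23 and ADAMTS15 have all low OC samples at 0%, and COL5A3, ITGA3 and ADAM17 all high OC samples at 0%.

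Cytosines outside CpG were listed in some matrix genes too. In the CHG context (H is any base but G) 9 listed sites in 8 genes matched the rule, 5 higher and 4 lower. In the CHH context it was 28 sites in 21 genes, 9 higher and 19 lower, beside 50.2% higher over all 3216 listed CHH sites. The lower FBLN1 sites 7918916, 7918968 and 7918975 had the same level and read count in each sample, so they can rest on the same reads. At 20 of the 28 CHH sites every sample of a group was at 0%, as at 74.9% of all listed CHH sites. In ADAMTSL2, the CHH site 11191855 was at 11, 33 and 18% in high OC and 70, 89 and 55% in low OC, and 4 bases away its CpG site 11191851 was at 11, 44 and 45% and 80, 100 and 70%. Both differences, -50.7 and -50.0 points, rest on 9 to 11 reads per sample. In ADAMTS16, a CHH site at 8874966 was at 36, 38 and 43% in high OC and at 0% in each low OC sample, on 7 to 14 reads, 53 bases from a CpG site that was lower. An ADAMTS8 CHH site at 3640787 was at 77, 69 and 79% against 56, 57 and 50% on even read counts.

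Matrix genes shared scaffolds. COL5A1, ADAMTSL2, ADAMTS13, LAMC3 and ADAMTSL3 lie on NW_006732900_1 with 58 member sites, 29 in each direction, where 57.1% of all 874 listed sites were higher. COL6A1, COL6A2, COL18A1 and ITGB2 share NW_006725821_1, with 12 sites higher and 14 lower, and COL20A1, COL9A3, LAMA5 and MMP9 share NW_006728129_1, with 14 and 17. Directions thus differed between members of the same scaffold, as between COL6A2 and COL18A1.

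A list of 78 other genes of matrix assembly and adhesion was set beside the members. Of these, 43 had a listed CpG site, 125 sites in all, 71 higher and 54 lower. Over all listed sites with a gene, 52.9% were higher. Of the 43 genes, 21 leaned higher, 13 lower and 9 were equal, beside 49.6% higher and 40.5% lower of all 6197 genes. LOXL1, which cross-links elastin, had 6 of 6 sites higher, all in its promoter between starts 2466973 and 2467146. At 2467146, levels were 60, 70 and 53% in high OC and 27, 47 and 40% in low OC, on even read counts. NID2, which bridges laminin and type IV collagen, had 8 of 11 higher, 6 of them in its promoter between starts 6309485 and 6309663. Of all listed promoter sites, 65.8% were higher. The heparan sulphate proteoglycan AGRN had 7 of 9 higher. MATN4 had 5 of 5 lower, of which the 4 exon sites lie between starts 138232 and 138256 on 5 to 10 reads. Sites as close as these, and as those of the LOXL1 and NID2 promoters, can share reads. In HSPG2, the basement membrane proteoglycan perlecan, 2 sites on the same strand only 2 bases apart went opposite ways. Levels at 20705990 were 67, 88 and 91% against 0% in each low OC sample, on 6 to 11 reads. At 20705992 they were 33, 12 and 0% against 80, 100 and 100%, on 5 to 11 reads. Both sites had 6, 8 and 11 reads in high OC, so they can rest on the same reads. All sites of these genes were chosen after their values were seen.

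Cell type could not be checked by expression, since only DNA methylation was measured. Of marker lists for skin cells, 1 of 8 fibroblast genes had listed sites (2 higher and 4 lower), 2 of 6 for basal keratinocytes (4 and 6), 3 of 10 for suprabasal keratinocytes (12 and 26), 2 of 6 for melanocytes (1 and 1), 2 of 4 for endothelium (3 and 5) and 1 of 3 for immune cells (0 and 1). The suprabasal genes went opposite ways: PKP3 had 1 site higher and 22 lower, EVPL 10 and 1, and TGM1 1 and 3. Beside these lists, 52.9% of all listed sites with a gene were higher. The basal keratinocyte genes with sites, ITGB4 and COL17A1, are also members. The part of cell mixture in the differences of matrix genes was not tested.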

How the data were processed

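Per the labels' protocols, DNA from 6 skin samples was digested with MspI, converted with bisulfite and read on a HiSeq. The submitters' processing notes name Bismark. No version, build, annotation or filter is stated in the labels, notes or headers. The authors deposited, per the file headers, each sample's methylation level as a fraction, a count of reads covering each cytosine, a difference of group means as a fraction, and a p-value that is not adjusted. Starts are those of the deposited tables; whether they count from 0 or 1 is not stated, and scaffold names are not those of assembly mBalPhy2.hap1.1.

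Groups came from the labels, and replicates were numbered in accession order. Levels were turned into percent, and methylated reads were taken as level times read count, rounded; they matched the deposited levels within 0.01. Group values are means ± SD of 3 samples. Fisher's exact test was run per site with Benjamini-Hochberg adjustment over all listed CpG sites and was tested on simulated data. RRBS reads without molecular identifiers are not independent molecules, so intervals and tests cover counting error only, and p-values say nothing of the spread between samples. The members and gene lists were chosen with earlier results of these data known. Genes to name were the up to 3 with most listed sites per family, every gene with a promoter site, the 10 with the largest difference at a site with at least 10 reads in each sample and groups that do not overlap, genes with a run of at least 5 sites, and members with a CHG or CHH site; the site shown is the largest difference with at least 10 reads in each sample, or else the largest. Alternatives were read minimums of 10 and 20, a 20 point minimum, strong sites only, 1 site per 1 kb window, even counts left out or halved, Wilson intervals, other run rules, summed reads and each sample left out. Python 3.11.15 with numpy 2.4.6, scipy 1.17.1, pandas 2.3.3 and matplotlib 3.10.9 was used.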

Additional observations from a re-analysis of the deposited data

How the results depend on the processing

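Depth limits these values: 261 of the 404 member sites (64.6%) had under 10 reads in some sample, beside 63.1% of all listed sites. The number of listed member sites was 143 with at least 10 reads in each sample, 26 with at least 20, 191 with a difference of at least 20 points and 35 among strongly different sites. The share higher in high OC, 49.0%, was 38.5% of the 26 sites with at least 20 reads and 37.1% among strongly different sites. Several of those 26 were lower sites of the same TNXB run, which can share reads. The share higher over all listed sites with at least 20 reads is not given here. All strongly different listed sites split into 2204 higher and 2164 lower. The promoter share, 6.19%, was 9.09% with at least 10 reads, 3.85% with at least 20 and 2.86% among strongly different sites. Runs numbered 6 with at least 5 sites each and 5 with at least 10 reads, of which 2 were higher. The count past Fisher's exact test was 115 of 143 with at least 10 reads and 25 of 26 with at least 20. Those 143 and 26 sites are all that the read minimums leave, and the matching shares over all listed sites are not given here. With Wilson intervals that do not overlap in place of the test, it was 116 of 404, beside 10073 of all listed sites (30.8%). The cause of the drop with Wilson intervals was not tested. Leaving out each sample in turn gave 97 to 113 sites past the test, 385 to 396 sites, a share higher of 48.1 to 49.1%, a promoter share of 5.43 to 6.14%, 42 to 44 genes leaning higher and 12 runs; these samples were left out among sites the authors had chosen with all 6. Alternatives without COL5A1, without COL4A3BP and with both strands of a CpG as 1 site were chosen after seeing the data and gave shares higher of 48.0, 48.9 and 49.0%. At the 54 named sites the groups do not overlap, so leaving out a sample cannot turn a direction there and says nothing of its stability; with summed reads no direction was reversed. No paired analysis was possible because the labels give no replicate numbers that the groups share.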
